A study of Homo sapiens with 16 samples.

Results

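The mitochondrial ribosomal protein genes were taken as the genes of the deposited expression table whose symbol is MRPL or MRPS followed by a number and, in a few cases, a letter from A to C. The rule found 71 of the 10566 genes of that table, 49 of them for the large subunit of the ribosome, 21 for the small subunit and 1, MRPS36, for a protein that is no longer counted as a ribosomal subunit. Of the 62703 genes that were counted, 78 fitted the rule, and 7 of these had too few counts to be tested. The genes were followed in spheroids of 3 prostate cancer cell lines: LNCaP, an androgen-dependent line, 22Rv1, a line from a castration-resistant xenograft, and PC3, an androgen-independent line. Every culture received 25 pmol of siRNA, either a pool that targets MED12 (siMED12) or a pool without a target (siCtrl), stayed a monolayer for 3 days and was then grown as spheroids for 4 days. MED12 is a subunit of the Mediator complex, which links transcription factors to RNA polymerase. There were 3 libraries of LNCaP siCtrl, 3 of LNCaP siMED12, 3 of 22Rv1 siCtrl, 2 of 22Rv1 siMED12, 3 of PC3 siCtrl and 2 of PC3 siMED12. A difference between lines is therefore one between 3 single cell lines. The study's methods speak in general of biological replicates, but the labels do not say whether these libraries came from separate cultures, and p-values measure the spread between them, which may be technical.

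Mitochondria translate the few proteins encoded by their own DNA on a ribosome of their own, built from a large and a small subunit around mitochondrial ribosomal RNAs. All of its proteins are encoded in the nucleus, made in the cytosol and imported. Many descend from bacterial ribosomal proteins, and others were added in the mitochondrial lineage. The proteins it makes are core subunits of the respiratory chain and of ATP synthase, and MYC is a known activator of many genes of ribosome and mitochondrial biogenesis.

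The genes are scattered over the genome. RefSeq promoters on GRCh38.p14, running from 250 bases before the start of transcription to 50 bases after it, were at hand for 64 of the 71 genes. Of these, 28 (43.8%) held CCGGAAG, the core of an ETS factor site, on either strand, against 20.3% of the promoters of the 8223 tested genes that had one and 10.3% of all 35116 promoters. AAGATGGCG, the core of a YY1 site, stood in 17.2% of the members' promoters, 4.37% of those of tested genes and 1.75% of all. GCGCATGC, the core of an NRF1 site, stood in 7.81%, 5.96% and 3.05%, and the E-box CACGTG, which MYC can bind, in 7.81%, 10.9% and 7.26%. Both strands were searched, none of the 4 motifs contains another, and a match is a run of letters and not a shown binding site. The promoters of 4 genes that differed between every pair of lines are printed to show how unlike they are. They are MRPS16, on the minus strand at chr10:73252595-73252894, MRPL11, on the minus strand at chr11:66438799-66439098, MRPS6, on the plus strand at chr21:34073328-34073627, and MRPL48, on the plus strand at chr11:73787624-73787923. Capitals mark the ETS motif, which starts 5 bases after the start of transcription in MRPS16 and 63 bases before it in MRPL48, while the MRPL11 and MRPS6 promoters held none of the 4 motifs.
MRPS16: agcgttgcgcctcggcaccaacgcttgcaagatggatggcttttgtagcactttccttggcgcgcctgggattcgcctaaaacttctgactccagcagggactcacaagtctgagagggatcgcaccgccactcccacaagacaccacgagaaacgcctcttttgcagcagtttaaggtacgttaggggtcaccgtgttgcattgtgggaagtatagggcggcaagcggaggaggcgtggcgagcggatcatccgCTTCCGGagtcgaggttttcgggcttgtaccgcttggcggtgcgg
MRPL11: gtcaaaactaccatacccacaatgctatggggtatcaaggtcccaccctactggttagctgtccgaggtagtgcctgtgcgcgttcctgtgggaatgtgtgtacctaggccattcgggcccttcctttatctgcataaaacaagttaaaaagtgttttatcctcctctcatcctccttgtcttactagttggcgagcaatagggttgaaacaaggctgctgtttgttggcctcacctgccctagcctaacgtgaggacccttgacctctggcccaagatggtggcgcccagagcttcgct
MRPS6: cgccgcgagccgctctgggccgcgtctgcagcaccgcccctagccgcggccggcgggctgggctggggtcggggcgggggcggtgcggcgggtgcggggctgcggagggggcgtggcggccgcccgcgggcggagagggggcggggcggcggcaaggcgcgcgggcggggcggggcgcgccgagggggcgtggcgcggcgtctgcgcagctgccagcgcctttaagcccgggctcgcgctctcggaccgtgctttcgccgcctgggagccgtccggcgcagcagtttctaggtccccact
MRPL48: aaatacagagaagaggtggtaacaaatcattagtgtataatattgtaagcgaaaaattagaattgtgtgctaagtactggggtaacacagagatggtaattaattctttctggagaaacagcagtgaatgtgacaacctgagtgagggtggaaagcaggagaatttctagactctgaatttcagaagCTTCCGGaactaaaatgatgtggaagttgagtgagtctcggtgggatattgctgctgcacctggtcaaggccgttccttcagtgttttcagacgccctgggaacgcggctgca

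Between 479118 and 993807 counts were deposited for a library. A count of 0 allows up to 3 counts, or 3.15 to 6.22 CPM (TMM-scaled counts per 1e6), for counting error only. Markers of LNCaP and PC3 followed the labels. KLK3, a prostate secretory protease, had 1154 to 2323 counts in LNCaP libraries, 8 to 21 in 22Rv1 and 5 to 28 in PC3, and KLK2, a related protease, had 578 to 1940 counts, 19 to 47 and 3 to 22. VIM, CAV1, CD44, ANXA1 and AXL summed to 1385 to 1625 CPM in PC3 libraries and at most 185 CPM elsewhere. HOXB13, taken like KLK3 as a marker of 22Rv1, had 104 to 215 counts in 22Rv1, below LNCaP at 227 to 366 and above PC3 at 26 to 56. Both were thus lower in 22Rv1 than in LNCaP, KLK3 by far the more, and these markers do not set 22Rv1 apart from LNCaP by a higher level. In 22Rv1 siMED12 replicate 3, 34 genes restricted to PC3 stood at 4.60% of their PC3 level, against 0.952% or less in every other LNCaP or 22Rv1 library, and in PC3 siMED12 replicate 3, 3 genes restricted to LNCaP stood at 2.75% of their LNCaP level. Without either of these 2 libraries no member was called with siMED12, as with them. The targeted gene was hardly counted: MED12 had 6, 9 and 11 counts in LNCaP siCtrl and 5, 5 and 9 in LNCaP siMED12, 18, 10 and 15 in 22Rv1 siCtrl and 7 and 7 in 22Rv1 siMED12, and 22, 8 and 13 in PC3 siCtrl and 12 and 7 in PC3 siMED12. In 22Rv1 the groups did not overlap, and in the other 2 lines they did. Its log2 fold changes were -0.50 (SE 0.46), -1.28 (SE 0.46) and -0.22 (SE 0.43), with adjusted p = 0.878, 0.175 and 0.987 by the quasi-likelihood test of edgeR with Benjamini-Hochberg adjustment over the 10566 genes, the test used throughout. The 3′ tags of these libraries therefore give little check of the knockdown.

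The mitochondrial ribosomal protein genes were a small share of each library. CPM are shares of a library, so a change in RNA per cell cannot be seen in them. They held 0.806% to 1.03% of the counts, and their summed level ran from 8209 to 10566 CPM. In siCtrl libraries the sum was 8851 ± 196 CPM in LNCaP (SD, n = 3), 8577 ± 366 CPM in 22Rv1 (SD, n = 3) and 10022 ± 480 CPM in PC3 (SD, n = 3), so that the PC3 siCtrl libraries lay above the other siCtrl libraries. The full separation of PC3 rested on MRPS6, described below. Over the large- and small-subunit genes without MRPS6, and so without MRPS36, the sum was 8556, 9554 and 9983 CPM in PC3 siCtrl. It was 8513 to 8826 CPM in LNCaP siCtrl and 7946 to 8769 CPM in 22Rv1 siCtrl, and the lines overlapped. PC3 siCtrl replicate 1 fell within the LNCaP range, while replicates 2 and 3 stayed above all LNCaP and 22Rv1 siCtrl libraries. The median member stood at 96.2 CPM in LNCaP, 92.6 CPM in 22Rv1 and 94.3 CPM in PC3. Because a 3′ tag library yields about 1 tag for each transcript whatever its length, these levels were set side by side between genes without scaling by length.

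By the mean over the 3 lines, MRPL51, a large-subunit protein of the mitochondrial lineage, was the highest member, at 455 ± 34.8 CPM in LNCaP, 554 ± 42.9 CPM in 22Rv1 and 377 ± 20.1 CPM in PC3 (SD, n = 3 each). MRPL20 followed at 437 ± 25.5, 292 ± 12.8 and 514 ± 43.1 CPM in the same order, and MRPS34, a small-subunit protein added in mitochondria, at 315 ± 6.95, 445 ± 44.1 and 355 ± 35.5 CPM. The lowest tested members all belonged to the small subunit: MRPS17 at 18.1, 17.0 and 16.4 CPM, MRPS14 at 26.4, 24.3 and 6.55 CPM, and MRPS10 at 5.08, 10.7 and 45.7 CPM in LNCaP, 22Rv1 and PC3. MRPS17 kept its level over the lines within the replicate spread, whereas MRPS14 and MRPS10 moved in opposite directions in PC3.

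The remaining 7 members could not be tested. MRPS24 and MRPL46 had 0 counts in every library, MRPS5 had 0 or 1, MRPL2 0 to 6, MRPS28 1 to 7, MRPS18C 1 to 8 and MRPS25 1 to 9. Of the last 500 exon bases of the gene model, where 3′ tags fall, another gene on the same strand shared 95.6% in MRPS5, 85.0% in MRPS24, 72.6% in MRPL46, 57.8% in MRPS28 and 22.8% in MRPL2. Reads that fit 2 genes may go uncounted, so a low count there is not a measure of the transcript. Among tested members the same overlap was 95.8% in MRPL38, 76.0% in MRPL53, 64.8% in MRPL33 and 39.2% in MRPL12, and their levels are uncertain for the same reason. Processed copies took few reads: 81 pseudogenes of 36 members had 169 counts in all, 0.155% of the 108736 counts of the members, and 72 of them were in MRPS36P1, which equals 12.5% of the count of MRPS36. MRPS18CP7 had 20 counts, or 37.7% of the 53 of MRPS18C, a member that was not tested.

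The siCtrl libraries were compared first to see how the genes differ between the lines without knockdown. Most members differed between at least 2 lines, in both directions and mostly by less than 2-fold. In 22Rv1 against LNCaP 16 of 71 members were higher and 21 lower at adjusted p under 0.05, 52.1% of the members against 43.2% of all tested genes (22% higher and 21.2% lower). In PC3 against LNCaP 20 were higher and 21 lower, 57.7% against 54.7% of all genes (29.2% higher and 25.5% lower). In PC3 against 22Rv1 26 were higher and 17 lower, 60.6% against 54.9% (28.7% higher and 26.1% lower). The shares called are thus near those of the whole table. The median log2 fold changes of the members were -0.19, 0.034 and 0.18 in these comparisons, beside 0, 0.045 and 0.012 for all genes. Large-subunit genes had medians of -0.26, 0.084 and 0.41, with 10, 13 and 20 of 49 called higher and 17, 16 and 10 called lower. Small-subunit genes had medians of 0.094, -0.038 and -0.056, with 6, 7 and 6 of 21 called higher and 4, 5 and 7 called lower. Groups of libraries that do not overlap, as described for single members below, were found in 51.2%, 60.2% and 58.9% of all genes. Over the 3 comparisons, 10 members were called in none, 12 in 1, 38 in 2 and 11 in all 3.

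In genes at 20 CPM or more on average, the largest of a gene's 3 differences between lines had a median of 0.71 on the log2 scale over 69 members, or 1.64-fold, and passed 1 in 27.5% of them. The same median was 0.99 over all 6720 genes at that level, of which 49.4% passed 1. It was 0.88 over 77 cytosolic ribosomal protein genes, with 44.2% past 1, and 0.69 over 74 nuclear genes for respiratory chain subunits, with 25.7% past 1. The whole cytosolic list was lower in PC3, with 7 of 80 genes called higher and 54 lower against LNCaP and a median log2 fold change of -0.74. The respiratory chain list had 8 of 76 called higher and 30 lower in that comparison, with a median of -0.27. The mitochondrial ribosomal protein genes, with 20 called higher and 21 lower, had no such common direction.

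**Figure D1:**
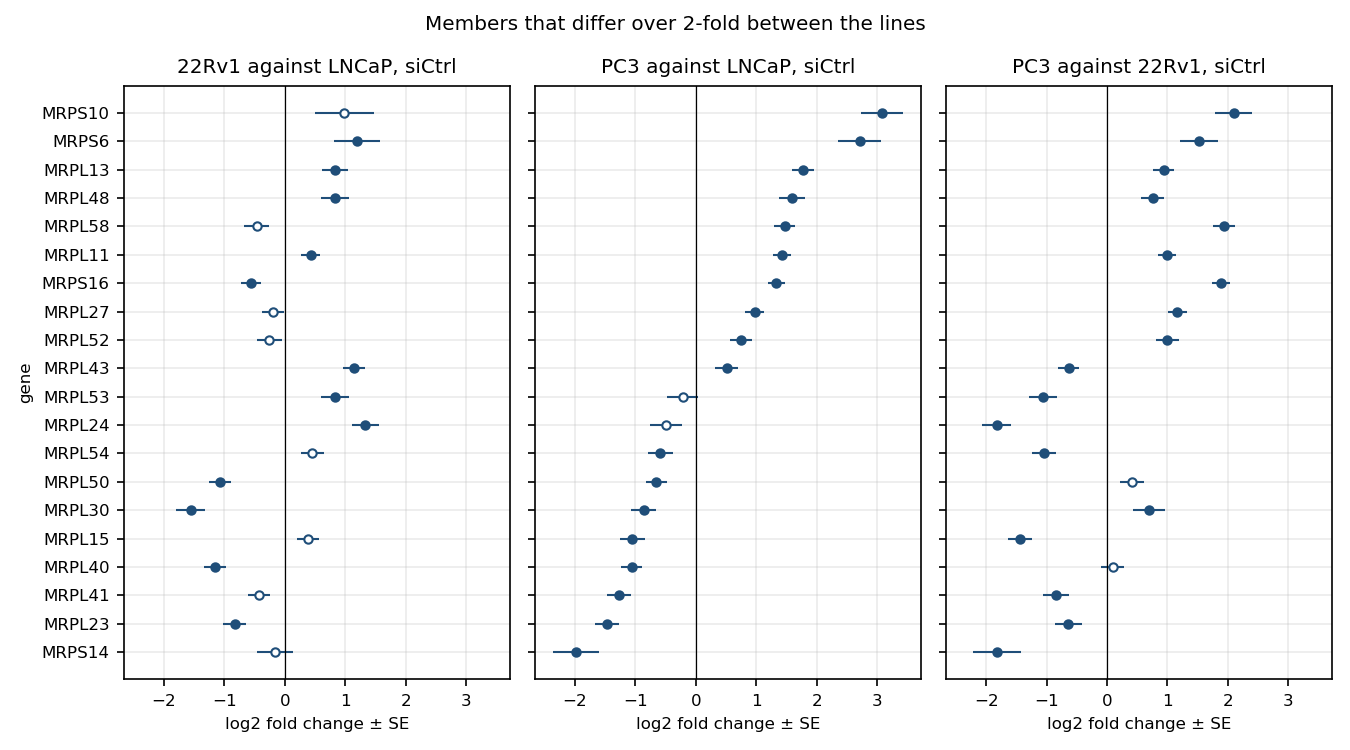
Log2 fold changes (x axis, bars are ± 1 SE) between siCtrl libraries of the lines, n = 3 libraries a line, for the 20 members past 2-fold in a comparison in which they were called (y axis). Filled points have adjusted p under 0.05 and open points do not. MRPS10 and MRPS6 lie farthest to the right in PC3 against LNCaP, at 3.08 and 2.71, and MRPS14 farthest to the left, at -1.98.

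PC3 stood above both other lines in 15 members and below both in 8. MRPS10, a small-subunit protein with a bacterial relative whose gene lies at chr6:42206807-42217861 on the minus strand (GRCh38), had 4.97, 2.86 and 7.42 CPM in LNCaP, 14.3, 10.0 and 7.70 CPM in 22Rv1 and 38.7, 57.8 and 40.5 CPM in PC3. The PC3 libraries lay apart from all others, while the LNCaP values rested on 3, 2 and 7 counts. The log2 fold change was 3.08 against LNCaP (SE 0.35, adjusted p = 7.56e-09) and 2.10 against 22Rv1 (SE 0.31, adjusted p = 7.46e-07). Against LNCaP the 22Rv1 libraries did not pass the test (0.98 on the log2 scale, SE 0.49, adjusted p = 0.109).

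MRPS6, another small-subunit protein with a bacterial relative, encoded at chr21:34073224-34143034 on the plus strand, varied widely between the libraries of a line. It had 134, 68.7 and 82.7 CPM in LNCaP, 168, 162 and 303 CPM in 22Rv1 and 1064, 239.7 and 545 CPM in PC3. LNCaP lay below both other lines, while the lowest PC3 library lay below the highest 22Rv1 library. It was higher in PC3 than in LNCaP by 2.71 (SE 0.35, adjusted p = 1.03e-07) and than in 22Rv1 by 1.52 on the log2 scale (SE 0.32, adjusted p = 1.56e-04), the latter 0.83 without PC3 siCtrl replicate 1. The difference of 1.19 between 22Rv1 and LNCaP (SE 0.38, adjusted p = 0.0118) lost its call without LNCaP siCtrl replicate 2 (adjusted p = 0.0584), LNCaP siCtrl replicate 3 (0.0552) or 22Rv1 siCtrl replicate 3 (0.114), and with DESeq2 (0.0755). The locus is shared with SLC5A3, an inositol transporter gene that lies within it on the same strand, and 9.48% of the exon bases of MRPS6 are also exons of other genes. SLC5A3 had 46, 14 and 15 counts in the 3 PC3 siCtrl libraries, highest in the same library as MRPS6, and 1 to 12 in LNCaP and 22Rv1 libraries. In PC3 siMED12 replicates 1 and 3 it had 36 and 12 counts, with MRPS6 at 388 and 363 CPM. Its part in the MRPS6 counts was not tested.

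MRPS16, the relative of bacterial S16, had 167, 152 and 178 CPM in LNCaP, 139, 104 and 93.7 CPM in 22Rv1 and 363, 454 and 438 CPM in PC3. All 3 lines were apart, with PC3 above 22Rv1 by 1.89 on the log2 scale (SE 0.15, adjusted p = 1.72e-12) and above LNCaP by 1.33 (SE 0.14, adjusted p = 1.24e-09). MRPL58, a large-subunit protein that can release stalled peptides, had 77.9, 67.3 and 74.2 CPM in LNCaP, 49.5, 65.2 and 46.2 CPM in 22Rv1 and 174, 202 and 234 CPM in PC3. PC3 exceeded the other lines by 1.47 (SE 0.17) and 1.94 (SE 0.18) on the log2 scale, and between 22Rv1 and LNCaP the difference of -0.46 did not pass the test (SE 0.21, adjusted p = 0.0744). MRPL11, which sits at the base of the ribosomal stalk where translation factors bind, differed between all 3 lines, with 152, 150.4 and 150.5 CPM in LNCaP, 194, 211 and 207 CPM in 22Rv1 and 361, 435 and 419 CPM in PC3. MRPL13 had 38.1, 38.7 and 36.0 CPM, 62.5, 73.5 and 65.4 CPM and 108, 134 and 143 CPM in the same order, and MRPL48 had 43.1, 31.5 and 60.4, 67.7, 96.9 and 84.7 and 147, 123 and 150.3 CPM. Both followed the order of MRPL11, with PC3 above LNCaP by 1.77 (SE 0.19) and 1.59 (SE 0.21) on the log2 scale. MRPL27 stood at 138, 143 and 149 CPM in PC3 and at 59.0 to 84.5 CPM in the 6 other siCtrl libraries.

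Members that were low in PC3 included MRPS14, a small-subunit protein with a bacterial relative, encoded at chr1:175010789-175023425 on the minus strand. It had 26.5, 22.9 and 29.7 CPM in LNCaP, 27.3, 30.1 and 15.4 CPM in 22Rv1 and 2.58, 8.41 and 8.67 CPM in PC3, the last from 2, 8 and 6 counts. PC3 lay below LNCaP by -1.98 (SE 0.38, adjusted p = 5.54e-05) and below 22Rv1 by -1.82 on the log2 scale (SE 0.40, adjusted p = 2.42e-04). MRPL15 had 84.5, 88.8 and 128 CPM in LNCaP, 142, 139 and 121 CPM in 22Rv1 and 37.4, 48.4 and 63.6 CPM in PC3, which was lower by -1.05 (SE 0.20) and -1.43 (SE 0.20). MRPL23 was highest in LNCaP and lowest in PC3, with 91.1, 145 and 136 CPM in LNCaP, 71.6, 53.5 and 83.4 CPM in 22Rv1 and 41.3, 43.1 and 52.0 CPM in PC3. MRPL41 was at 80.6 to 108 CPM in LNCaP, 60.2 to 80.7 CPM in 22Rv1 and 29.7 to 46.2 CPM in PC3. MRPL54 had log2 fold changes of -0.59 (SE 0.20) in PC3 against LNCaP and -1.04 (SE 0.20) against 22Rv1.

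22Rv1 stood above both other lines in 8 members and below both in 10. MRPL24 had 54.7, 64.4 and 77.4 CPM in LNCaP, 233, 154 and 115 CPM in 22Rv1 and 54.2, 43.1 and 44.8 CPM in PC3. The 22Rv1 libraries lay apart from the rest, with log2 fold changes of 1.33 against LNCaP (SE 0.22, adjusted p = 1.34e-05) and, for PC3 against 22Rv1, of -1.83 (SE 0.23, adjusted p = 7.45e-08). MRPL43 had 86.2, 90.2 and 84.8 CPM, 239, 170.5 and 164 CPM and 111, 111 and 152 CPM in LNCaP, 22Rv1 and PC3. MRPL53, whose 3′ end overlaps CCDC142, a gene with 0 to 2 counts a library, had 28.2, 28.6 and 29.7 CPM, 44.2, 46.8 and 62.9 CPM and 24.5, 25.2 and 24.6 CPM. MRPL30 was the member most reduced in 22Rv1, with 76.2, 60.2 and 81.6 CPM in LNCaP, 20.8, 28.4 and 25.7 CPM in 22Rv1 and 34.8, 43.1 and 41.9 CPM in PC3, so that 22Rv1 was below LNCaP by -1.56 on the log2 scale (SE 0.24, adjusted p = 3.35e-06).

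LNCaP stood above both other lines in 11 members and below both in 8. MRPL40, a protein of the mitochondrial lineage, had 154, 146 and 157 CPM in LNCaP, 75.5, 66.9 and 62.9 CPM in 22Rv1 and 85.1, 63.1 and 72.2 CPM in PC3. The LNCaP libraries lay above all the others, with log2 fold changes of -1.15 in 22Rv1 (SE 0.18) and -1.06 in PC3 (SE 0.17). MRPL50, with -1.07 (SE 0.18), and MRPS11, with -0.96 (SE 0.22), were also lower in 22Rv1 than in LNCaP. MRPL57 had 200.5, 203 and 223 CPM in LNCaP, 104, 117 and 94.95 CPM in 22Rv1 and 132, 161 and 157 CPM in PC3, and the 3 lines lay apart. Each of the 6 patterns was about as frequent among the members as among all genes: PC3 above both in 21.1% against 19.5%, PC3 below both in 11.3% against 13.5%, 22Rv1 above both in 11.3% against 12.1%, 22Rv1 below both in 14.1% against 9.40%, LNCaP above both in 15.5% against 11.8% and LNCaP below both in 11.3% against 9.98%.

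**Figure D2:**
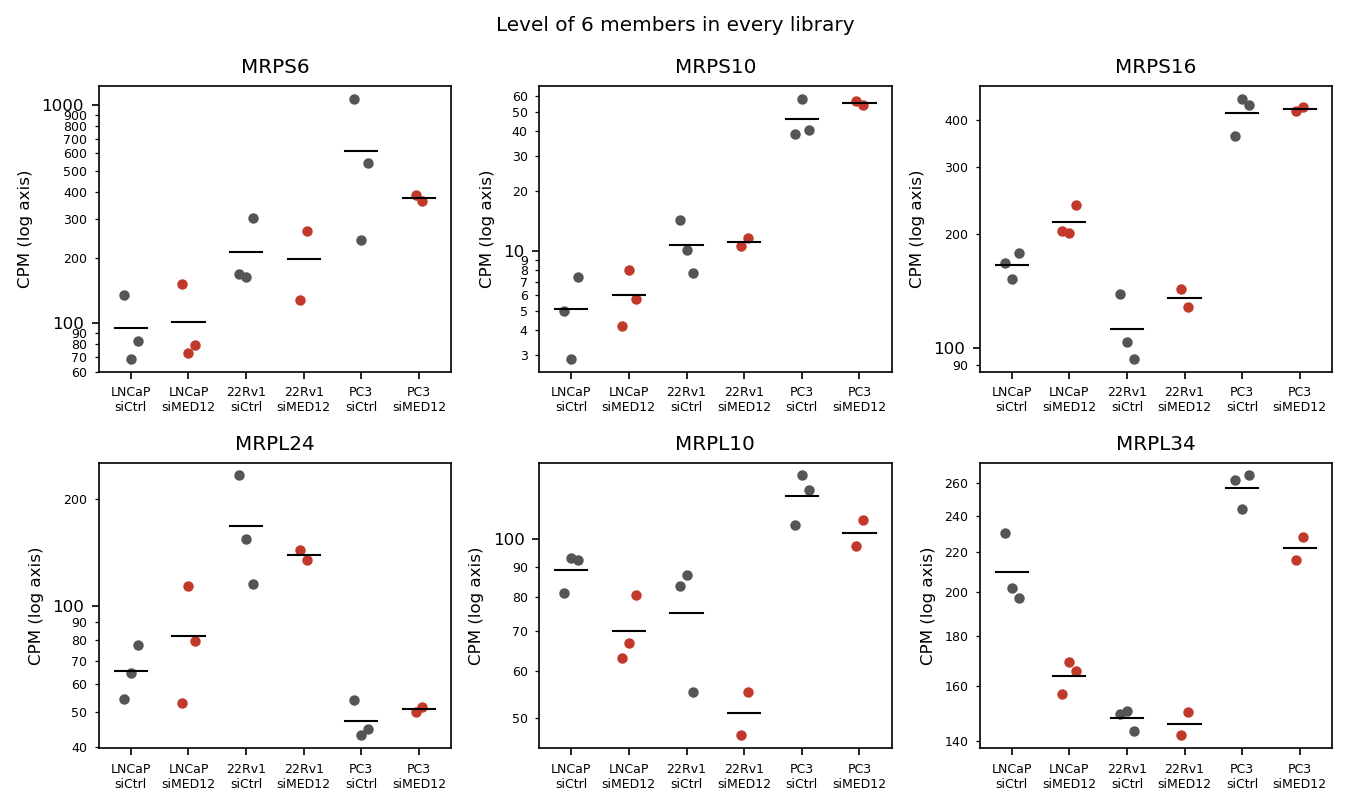
CPM on a log axis (y) of 6 members in each of the 16 libraries, by line and treatment (x). Grey points are siCtrl libraries, red points siMED12 libraries and bars group means. PC3 libraries are highest for MRPS10 and MRPS16, 22Rv1 libraries are highest for MRPL24, and the MRPS6 points of a group spread widely, from 239.7 to 1064 CPM in PC3 siCtrl.

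The balance of the subunits was described from the summed levels. The large-subunit sum was 6062 ± 50.6 CPM in LNCaP siCtrl, 5504 ± 312 CPM in 22Rv1 siCtrl and 6331 ± 469 CPM in PC3 siCtrl, and the small-subunit sum was 2743 ± 151, 3020 ± 83.0 and 3650 ± 261 CPM (SD, n = 3 each). The ratio of the sums was 2.15 to 2.34 in LNCaP siCtrl, 1.72 to 1.88 in 22Rv1 siCtrl and 1.53 to 1.92 in PC3 siCtrl. With MRPS6 left out, a step added after the values were seen, it was 2.22 to 2.40, 1.91 to 1.99 and 2.07 to 2.12. The siCtrl libraries of the 3 lines then no longer overlapped, and LNCaP remained the highest. In siMED12 libraries the ratio without MRPS6 was 2.26 to 2.40 in LNCaP, 1.90 to 1.989 in 22Rv1 and 1.985 to 2.08 in PC3. Each range overlapped the siCtrl range of its own line. With siMED12 the PC3 and 22Rv1 libraries overlapped, so only LNCaP stayed apart under both treatments. Single members did not keep to these ratios, and among small-subunit genes MRPS10 and MRPS14 differed between PC3 and LNCaP by 3.08 and -1.98 on the log2 scale.

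**Figure D3:**
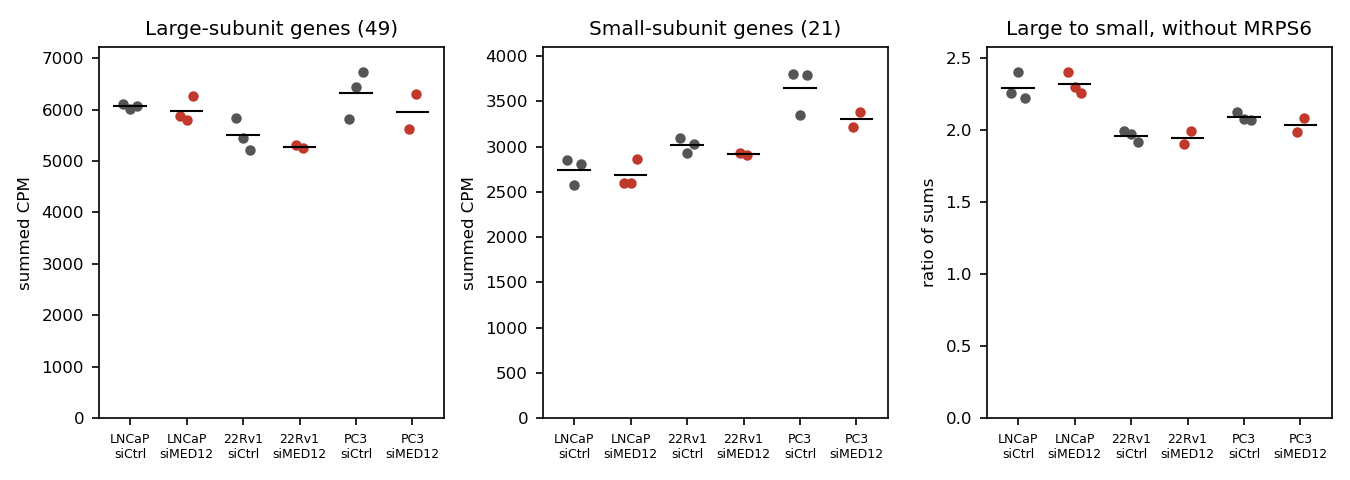
Summed CPM of the 49 large-subunit and 21 small-subunit genes and the ratio of the sums without MRPS6 (y axes) in each library, by line and treatment (x). Grey points are siCtrl libraries, red points siMED12 libraries and bars group means. The ratio is highest in LNCaP and the siMED12 points fall among or next to the siCtrl points of their line.

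The members mostly differed between lines in the same direction as the genes around them. This was asked after the values were seen. For each of the 64 members with at least 5 other tested genes starting within 1 Mb, the median log2 fold change of those neighbours was taken. Of the members called in PC3 against 22Rv1, 34 of 37 (91.9%) had the sign of their neighbours' median, against 70.9% of 4829 called genes in the whole table. In PC3 against LNCaP it was 30 of 37 (81.1%) against 70.3%, and in 22Rv1 against LNCaP 29 of 34 (85.3%) against 66.5%. Across these members, which are not independent replicates, Pearson's r of the member's and the neighbours' difference was 0.57, 0.53 and 0.53, beside 0.31, 0.25 and 0.22 across the 8887 genes of the table with as many neighbours. The genes were not matched for level: 69 of the 71 members but 6720 of the 10566 tested genes stood at 20 CPM or more on average. MRPS16 lies on chromosome 10 among 23 other tested genes, of which 16 were higher in PC3 than in 22Rv1 and 1 lower, with a median of 2.14. On chromosome 8, 4 of the 5 neighbours of MRPL13 were higher in PC3 than in LNCaP. All 4 neighbours of MRPL15, which had too few to be among the 64 members, were lower. Some called members went against their neighbours. MRPL57 was at -0.48 in PC3 against LNCaP beside a neighbours' median of 0.62. MRPL48 was at 0.83 in 22Rv1 against LNCaP beside -0.43. MRPS10 and MRPS6 went much further than their surroundings, with neighbours' medians of 0.54 and 0.50 beside differences of 3.08 and 2.71 in PC3 against LNCaP. The 3 comparisons share their libraries and are not independent of each other.

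**Figure D4:**
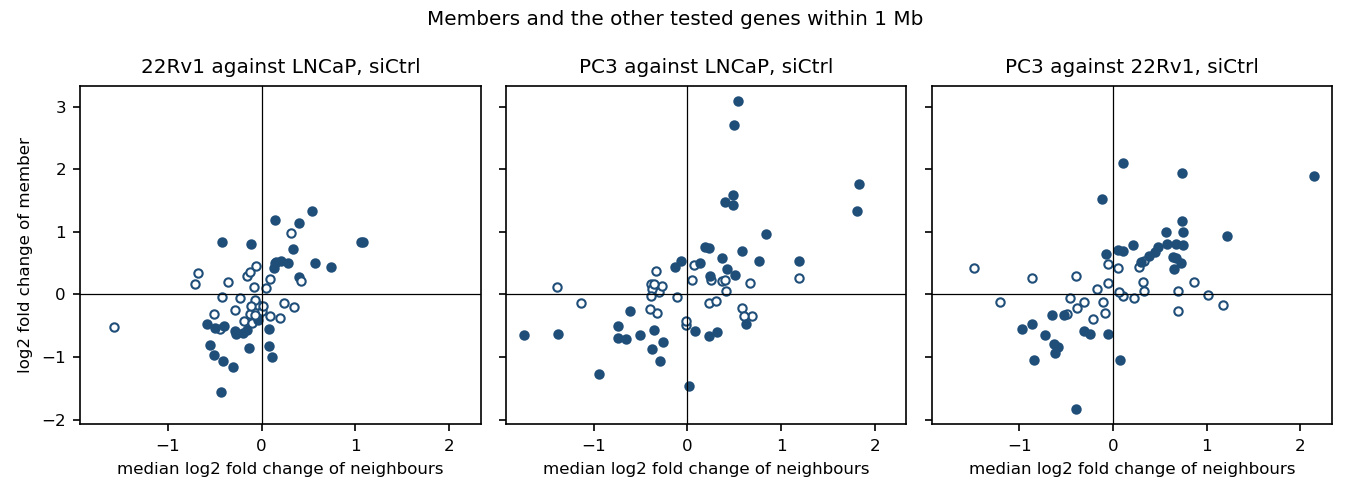
Log2 fold change of each of 64 members (y) against the median log2 fold change of the other tested genes within 1 Mb (x), between siCtrl libraries of the lines. Filled points are members with adjusted p under 0.05 and open points are the others. In PC3 against 22Rv1, 34 of the 37 filled points lie to the lower left or the upper right of 0.

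The effect of MED12 knockdown was then compared within each line. No member passed the test in LNCaP, 22Rv1 or PC3, in the mean over the lines or in a difference of effects between lines. Among all 10566 genes 44 (0.416%) were called in LNCaP, 194 (1.84%) in 22Rv1, 0 (0%) in PC3 and 28 (0.265%) in the mean effect, and 0.189%, 0.0284% and 0.0946% in the differences 22Rv1 minus LNCaP, PC3 minus LNCaP and PC3 minus 22Rv1. At an unadjusted p under 0.05 there were 3 members higher and 3 lower in LNCaP, where 3.24% and 4.11% of all genes were. There were 0 and 2 in 22Rv1 (6.37% and 5.37% of all genes), 0 and 1 in PC3 (2.63% and 2.36%) and 2 and 6 in the mean effect (3.94% and 4.58%). DESeq2 and limma called 0 members as well. All these counts come from fits without pairing. With the replicate numbers as pairs in the fit, 117 of all genes and 0 members were called in LNCaP, where the numbers pair the libraries.

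The estimates were small and fairly precise. The median standard error of a member's log2 fold change was 0.18 in LNCaP, 0.20 in 22Rv1, 0.21 in PC3 and 0.12 in the mean effect. The 95% interval lay wholly within 2-fold in either direction for 68, 67, 66 and 71 of the 71 members. For the remaining members the interval reached past 2-fold. The median log2 fold change of the members was -0.033 in LNCaP, -0.032 in 22Rv1, -0.092 in PC3 and -0.071 in the mean effect, beside -0.0038, 0.0061, -0.038 and -0.012 for all genes. Values below 0 were found for 39, 43, 50 and 51 of 71 members (54.9%, 60.6%, 70.4% and 71.8%), against 50.4%, 48.7%, 55.6% and 52.3% of all genes.

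The members have short gene models, with a median exon length of 2478 bases against 5098 bases for all tested genes, and with all genes split into 5 equal classes of length, 40 of the 71 fall into the shortest. In PC3 the median siMED12 log2 fold change of all genes ran from -0.099 in the shortest class to 0.091 in the longest. With that trend removed the members' median was -0.0039 in PC3 and -0.037 in the mean effect over the lines. The medians of all genes were then -1.03e-05 and 0.0030, so in the mean effect the members still lay below all genes. Without the length correction, the PC3 median was 0.017 when PC3 siMED12 replicate 1 was left out, and the median of the mean effect ran from -0.085 to -0.046 when each library was left out in turn. The median in 22Rv1 ran from -0.11 without siMED12 replicate 1 to 0.047 without siCtrl replicate 1, and in LNCaP from -0.066 without siMED12 replicate 3 to -0.0083 without siMED12 replicate 2.

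**Figure D5:**
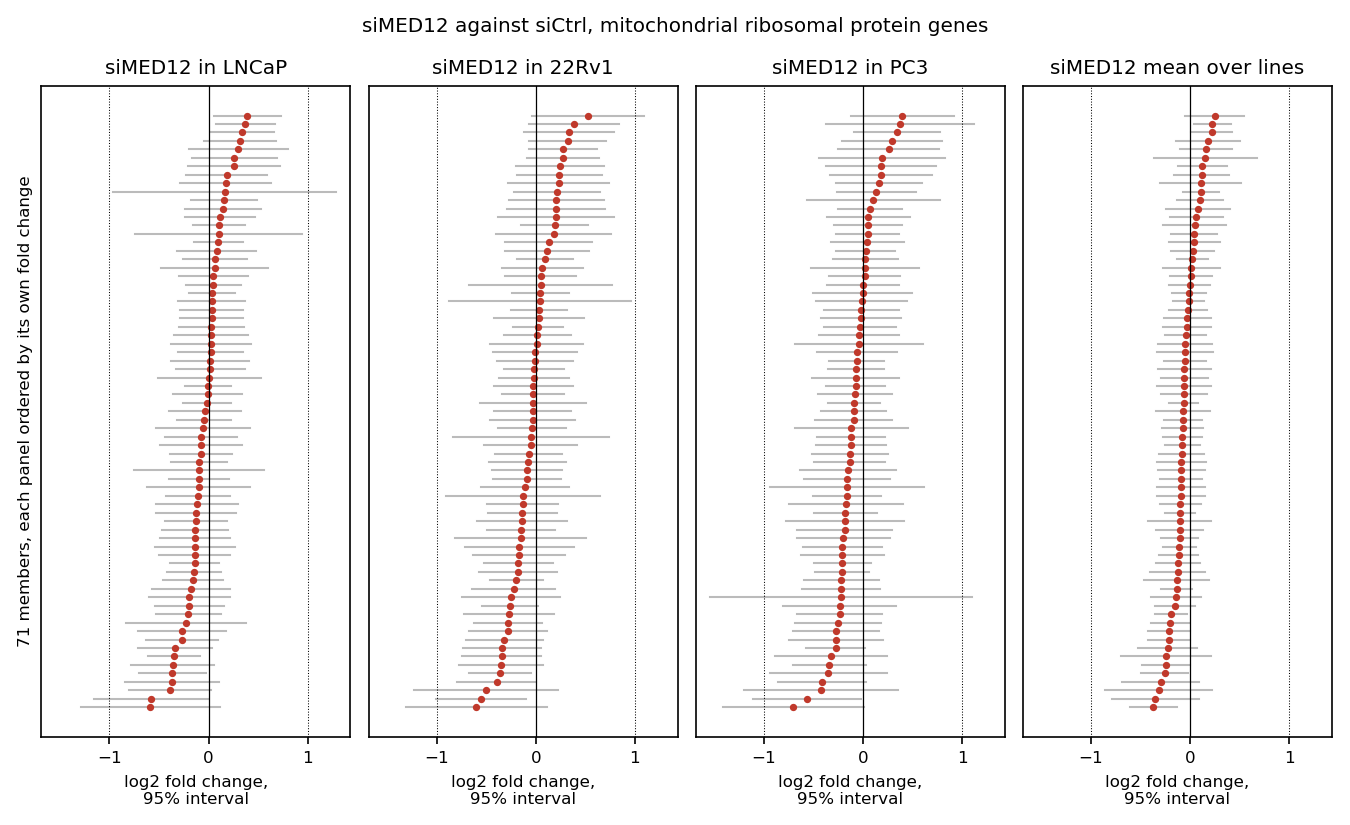
Log2 fold change of siMED12 against siCtrl (x) with its 95% interval (grey lines) for the 71 members in LNCaP, 22Rv1 and PC3 and in the mean over the lines, each panel ordered by its own values (y). Dotted lines mark 2-fold. Most intervals include 0 and lie within the dotted lines, 71 of 71 in the mean effect.

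The member with the smallest p over the lines was MRPL10, a protein of the ribosomal stalk. It had 81.2, 93.1 and 92.2 CPM in LNCaP siCtrl and 62.9, 66.7 and 80.5 CPM in LNCaP siMED12, 83.3, 86.9 and 55.2 CPM in 22Rv1 siCtrl and 46.7 and 55.2 CPM in 22Rv1 siMED12, and 106, 128 and 121 CPM in PC3 siCtrl and 97.6 and 108 CPM in PC3 siMED12. The siMED12 libraries lay below the siCtrl libraries in LNCaP and, by less than the rounding, in 22Rv1, and overlapped them in PC3. The mean log2 fold change was -0.37 (SE 0.12, unadjusted p = 0.00307, adjusted p = 0.241), with -0.34 (SE 0.18) in LNCaP, -0.55 (SE 0.22, adjusted p = 0.263) in 22Rv1 and -0.22 (SE 0.19) in PC3.

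MRPS16 and MRPL34 came next. MRPS16 had 204, 202 and 238 CPM in LNCaP siMED12 and 143 and 128 CPM in 22Rv1 siMED12, above and among the siCtrl values given above, and 422 and 431 CPM in PC3 siMED12. Its log2 fold change was 0.37 (SE 0.15, adjusted p = 0.528) in LNCaP and 0.22 (SE 0.091, adjusted p = 0.453) in the mean effect. MRPL34, a relative of bacterial L34, had 230.3, 202 and 197 CPM in LNCaP siCtrl and 157, 169 and 166 CPM in LNCaP siMED12, which did not overlap, with a difference of -0.35 on the log2 scale (SE 0.13, adjusted p = 0.443). In PC3 it had 262, 244 and 264 CPM with siCtrl and 216 and 228 CPM with siMED12, and in 22Rv1 144 to 150.4 CPM with siCtrl and 142 and 150.1 CPM with siMED12. MRPL41 had 129, 117 and 128 CPM in LNCaP siMED12, above the siCtrl libraries, with 0.39 (SE 0.17, adjusted p = 0.595). Groups that do not overlap were common in the table, at 12.6% of all genes in LNCaP, 26.6% in 22Rv1 and 20.7% in PC3.

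In 22Rv1, MRPS2 was at -0.36 on the log2 scale (SE 0.15, adjusted p = 0.320) and MRPL19 at -0.39 (SE 0.20, adjusted p = 0.428). MRPS2 had 273, 281 and 358 CPM with siCtrl and 251 and 223 CPM with siMED12. In PC3, MRPL49 had 52.9, 66.2 and 85.2 CPM with siCtrl and 51.4 and 37.3 CPM with siMED12, or -0.57 on the log2 scale (SE 0.27, adjusted p = 0.974). MRPS6 in PC3 had 388 and 363 CPM with siMED12, within the siCtrl range of 239.7 to 1064 CPM, and a difference of -0.70 on the log2 scale (SE 0.35, adjusted p = 0.974). This value was -0.035 without PC3 siCtrl replicate 1 and -1.10 without PC3 siCtrl replicate 2, and it passed the test when every gene with at least 1 count was kept (-0.68, adjusted p = 0.0371). MRPS18B had -0.41 (SE 0.22, adjusted p = 0.974).

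The 3 human relatives of bacterial S18 sit at different places in the ribosome, MRPS18A in the large subunit and MRPS18B and MRPS18C in the small. MRPS18A had 64.6, 77.3 and 56.2 CPM in LNCaP siCtrl, 61.2, 55.2 and 53.9 CPM in 22Rv1 siCtrl and 86.4, 66.2 and 76.6 CPM in PC3 siCtrl, and was called in no comparison of lines. MRPS18B had 79.5, 65.9 and 63.6 CPM, 98.9, 144 and 122 CPM and 112, 98.8 and 89.6 CPM in the same lines, with LNCaP lower than both others. MRPS18C was not tested, at 1 to 8 counts. In siMED12 libraries the log2 fold changes of MRPS18A were -0.18, -0.14 and 0.055 and those of MRPS18B -0.079, -0.28 and -0.41 in LNCaP, 22Rv1 and PC3.

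The other genes of mitochondrial translation were also nearly without calls. None of 5 ribosome subunits with other names, 8 translation factors, 23 assembly factors, 8 genes of mitochondrial DNA transcription and replication and 2 mitochondrial ribosomal RNAs was called with siMED12 in a line or in the mean. At an unadjusted p under 0.05 the assembly factor ERAL1, which binds the small-subunit ribosomal RNA, had log2 fold changes of -0.67 in 22Rv1 (SE 0.20, adjusted p = 0.0896) and -0.73 in PC3 (SE 0.27, adjusted p = 0.891), and the initiation factor MTIF3 -0.62 in PC3 (SE 0.28, adjusted p = 0.974). Of 80 cytosolic ribosomal protein genes 0 were called, with 75 values below 0 in LNCaP and a median of -0.15 there, beside 39 of 71 and -0.033 for the mitochondrial ones. In 22Rv1 31 of the 80 were below 0, with a median of 0.031, and in PC3 68, with a median of -0.11. Of all genes 50.4%, 48.7% and 55.6% were below 0 in LNCaP, 22Rv1 and PC3. Of 76 nuclear respiratory chain genes 1 was called, lower in 22Rv1, where 1.84% of all genes were called.

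MYC was the clearest change in these lists. It had 706, 869 and 604 CPM in LNCaP siCtrl and 413, 479 and 489 CPM in LNCaP siMED12, and 770.4, 973 and 751 CPM in 22Rv1 siCtrl and 419 and 484 CPM in 22Rv1 siMED12. The groups did not overlap in either line. It fell by 0.65 in LNCaP (SE 0.14, adjusted p = 0.0151) and by 0.88 in 22Rv1 (SE 0.15, adjusted p = 8.97e-04) on the log2 scale. In PC3 it had 377, 472 and 446 CPM with siCtrl and 356 and 419 CPM with siMED12, with -0.17 (SE 0.16, adjusted p = 0.978). A difference of effects between PC3 and 22Rv1 was not shown for MYC (0.71, SE 0.22, adjusted p = 0.239). In LNCaP the MYC call was lost without siCtrl replicate 1, siCtrl replicate 2, siMED12 replicate 1 or siMED12 replicate 2, and in 22Rv1 without siMED12 replicate 1.

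Of the 11 tested messenger RNAs encoded by mitochondrial DNA, which the mitochondrial ribosome translates, 11 had values above 0 with siMED12 in LNCaP, with a median of 0.27, 2 in 22Rv1, with a median of -0.12, and 1 in PC3, with a median of -0.091. The values below 0 were thus 0, 9 and 10 of 11, beside 50.4%, 48.7% and 55.6% of all genes. The 11 values of a line come from the same libraries and are not independent of each other. In LNCaP 0 were called, but the replicate numbers pair the LNCaP libraries, and with that pairing in the fit MT-CO1 and MT-ND3 passed, which made 3 called genes with MYC in place of 1 over these lists. MT-CO1 had 1562, 1731 and 1349 CPM in LNCaP siCtrl and 1634, 3340.1 and 1802 CPM in LNCaP siMED12, with replicate 2 far above the rest. In 22Rv1 it had 1886, 3062 and 1642 CPM with siCtrl and 1134 and 1275 CPM with siMED12, lower by -0.86 (SE 0.23, adjusted p = 0.0489). This call was lost without 22Rv1 siMED12 replicate 3, the library with PC3-restricted transcripts, and without several other libraries.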

How the data were processed

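Messenger RNA was measured by BRB-seq, in which each sample is barcoded at reverse transcription and 3′ ends are sequenced. The authors aligned and counted reads with STARsolo on Gencode release 43 (GRCh38.p13). Collapsing of molecular identifiers and the strand setting are not given in the sources used here, so antisense or overlapping genes may share reads. The deposited count table holds raw counts of 62703 genes in 16 libraries. The deposited log2 CPM, made by the authors from these counts, were recomputed to within 4.97e-14 with a prior count of 2, and were used only for gene choice and for limma.

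Counts were fitted with edgeR 4.0.16 in R 4.3.3 (TMM scaling, filter at a count of 10 and a total of 15, quasi-likelihood test, 1 mean for each of 6 groups, 10 contrasts) and p-values adjusted by Benjamini-Hochberg over 10566 genes. Called means adjusted p under 0.05. CPM are TMM-scaled and fold changes log2. The common biological coefficient of variation was 0.125. Scripts were tested on simulated data. Alternatives were DESeq2 1.42.0, limma 3.58.1, other scaling and filtering, a length trend, a replicate block, edgeR's older quasi-likelihood test (added later), and each library left out in turn. Pairs of replicates in a group differed by 1.54 to 3.19 times the sampling variance, so none was a copy. Replicate numbers were checked over 6606 genes: same-numbered LNCaP libraries deviated together in 3 pairs (r = 0.15, 0.13 and 0.14) and were taken as paired, while 22Rv1 (0.19 and 0.26) and PC3 (0.12 and 0.080) have only 2 pairs and share only a number.

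Members and lists were chosen with earlier results of these data known. Named members are the 3 with the smallest p in each siMED12 contrast, the 5 called members with the largest fold change of each sign between lines, the 3 highest and 3 lowest, the S18 relatives, MED12 and MYC, and genes of the smallest p in each other list; printed promoters are of the members called in most comparisons, by adjusted p. Neighbouring genes and the ratio without MRPS6 were added after values were seen. Coordinates and exon overlaps are from Gencode release 44, promoters from RefSeq on GRCh38.p14. Some line markers are not reported here.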

Additional observations from a re-analysis of the deposited data

Results flagged for a closer look

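The siMED12 effect on MT-CO1 differed between 22Rv1 and LNCaP in the test of the difference itself. MT-CO1 encodes a core subunit of cytochrome c oxidase and is a transcript that the mitochondrial ribosome translates. The difference was -1.41 on the log2 scale (SE 0.31, adjusted p = 0.0471), from 0.55 (SE 0.20, adjusted p = 0.455) in LNCaP and -0.86 (SE 0.23, adjusted p = 0.0489) in 22Rv1. Without LNCaP siMED12 replicate 2, the library with 3340.1 CPM, it was -1.02 (adjusted p = 0.143), and without 22Rv1 siCtrl replicate 2, with 3062 CPM, it was -1.10 (adjusted p = 0.200). The call was lost on leaving out 11 of the 16 libraries in turn, with adjusted p from 0.0167 to 0.200 over all 16. It was -1.41 with DESeq2 (adjusted p = 0.399), -1.29 with limma (adjusted p = 0.12) and -1.44 with the length trend removed (adjusted p = 0.0598), none of which passed. With the replicate block, whose numbers pair the libraries in LNCaP and are only shared in 22Rv1, it was -1.03 (adjusted p = 0.00334). With the length trend removed in the block fit it was -1.03 (adjusted p = 0.00712). It also passed with RLE scaling (-1.40, adjusted p = 0.0496), edgeR's older test (-1.41, adjusted p = 0.0484) and all genes of at least 1 count (-1.36, adjusted p = 6.63e-13). The cause was not tested.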

How the results depend on the processing

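The numbers of members called in siMED12 against siCtrl were 0 in LNCaP and 22Rv1 under every alternative run. In PC3, 1 member was called with all genes of at least 1 count, 1 with the replicate block and 1 with the length trend removed in the block fit. In the mean effect and in the PC3 minus LNCaP difference of effects, 1 was called with the replicate block and 1 with length trend and block. Each time it was MRPS6, at -0.68 (adjusted p = 0.0371), -1.07 (3.06e-05) and -1.02 (2.62e-04) in PC3. With the block it was at -0.42 (0.0116) in the mean effect and -1.14 (0.0166) in the PC3 minus LNCaP difference, and with length trend and block at -0.40 (0.0280) and -1.10 (0.0369). In PC3 and 22Rv1 same-numbered libraries share only a number, and with 2 pairs a line the block in these lines is a hint at most. In LNCaP, where the numbers pair the libraries, the block changed no call of a member. The members' median in PC3 was -0.0039 with the length trend removed and 0.025 with the block as well, against an SD of 0.082 between replicates. Among the other genes of mitochondrial translation, 22Rv1 had 1 call, MYC, in place of 2 with RLE scaling, DESeq2, limma, the length trend, length trend and block, or edgeR's older test. LNCaP had 2 with all genes of at least 1 count, 3 with the block and 4 with length trend and block, in place of 1, and the mean effect 2 with all genes of at least 1 count in place of 1. With each library left out in turn, these calls ranged from 0 to 1 in LNCaP and 0 to 2 in 22Rv1. The members' median of the mean effect ran from -0.070 to -0.024 over the alternatives other than leaving out a library. On leaving out each library in turn, the members' medians ranged from -0.131 to 0.017 in PC3. They ranged from -0.111 to 0.038 in the PC3 minus LNCaP difference of effects. In siCtrl they ranged from -0.079 to 0.072 in PC3 against LNCaP and from 0.055 to 0.19 in PC3 against 22Rv1. Under the other alternatives the highest medians were 0.025, 0.075, 0.077 and 0.21 in the same order. MED12 in PC3 ranged from -0.63 to 0.25 with a library left out, the latter without siCtrl replicate 1. It ranged from -0.77 to -0.13 under the other alternatives. Member calls between lines ranged over 29 to 37, 31 to 42 and 37 to 43 with a library left out. Under the other alternatives they ranged over 29 to 39, 32 to 40 and 37 to 43. The cause of these changes was not tested. Depth limits MED12, MRPS10, MRPS14 and the 7 untested members.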
